A study of Homo sapiens with 7 samples.

Results

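Kasumi-1 cells with reduced PHF19 gained accessible chromatin in the first introns of genes, and 470 such regions are described here out of 8815 listed as changed. The regions were selected on the readout: each had a higher mean read count in the knockdown than in the control, lay in intron 1 of a transcript by the authors' annotation, and was not on chromosome 7. They made up 6.21% of the 7573 regions gained outside chromosome 7 and 31.1% of the 1510 gained in any intron there (95% Clopper-Pearson interval 28.8 to 33.5%). Because direction, fold and false discovery rate (FDR) come from the contrast that chose the regions, these values are given as a description, with no test. Across all 52675 regions the authors tested, 16.4% were listed as gained at an FDR of at most 0.05, and by that rule every one of the 470 passes.

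Kasumi-1 is a long-established line from an acute myeloid leukaemia in which RUNX1 is fused to RUNX1T1. The assay was ATAC-seq, in which a transposase cuts open DNA. The control group was 4 libraries from cells given a scrambled shRNA, and the knockdown group was 3 libraries from cells given an shRNA against PHF19 from a lentiviral vector. Both groups were selected with puromycin at 2 µg/ml from 48 hours after the shRNA for at least 24 hours, and 10000 cells entered each library. Whether the libraries of a group stem from separate cultures is not said in the labels. The p-values of the authors then cover the spread among the libraries alone, and that spread may be technical. Levels of the PHF19 transcript and protein were not measured by this assay, and none of the 470 regions lay in PHF19 itself. Every mean read count, log2 fold and FDR of a single region below comes from the authors' deposited table, which gives 1 mean per group and no value per library, so that no SD and no overlap between libraries can be stated. The depth of each library is unknown here.

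The first intron begins right after the first exon, close to where transcription starts. First introns are known to hold many enhancers, alternative promoters and binding sites of transcription factors, and they are often the longest introns of a gene. PHF19 is a Polycomb-like protein that binds methylated histone H3 lysine 36 and helps Polycomb repressive complex 2 (PRC2) to reach chromatin, where PRC2 methylates histone H3 lysine 27. Gene repression by PRC2 is known to hold back developmental and lineage genes in stem and progenitor cells.

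Of the 355 genes whose first intron held a gained region, 105 also had a gained region at a promoter, within 3 kb of a transcription start site (TSS). The promoters of 4 of them are shown because both ends of the pattern, the start site and the intron behind it, were gained in the same gene. They were taken after the values were seen, as the 4 largest first-intron folds among 30 eligible protein-coding genes. In these the nearest TSS lay under a gained region, and the gene of the intron was also the nearest gene. The deposited transcript length was within 1% of the RefSeq gene span, and the promoter is in the RefSeq table. Genes on 1 further chromosome had been left out before this choice, so the 30 and the ranking do not cover them. Each sequence runs from 250 bases before the start to 50 after it, from RefSeq in build GRCh38.p14, 5′ to 3′ on the gene's strand. Capitals mark CCGCCC or its reverse complement GGGCGG, the core of the GC box bound by KLF and SP factors; overlapping matches form 1 run.
LIMS1, chr2:108534220-108534519, plus strand: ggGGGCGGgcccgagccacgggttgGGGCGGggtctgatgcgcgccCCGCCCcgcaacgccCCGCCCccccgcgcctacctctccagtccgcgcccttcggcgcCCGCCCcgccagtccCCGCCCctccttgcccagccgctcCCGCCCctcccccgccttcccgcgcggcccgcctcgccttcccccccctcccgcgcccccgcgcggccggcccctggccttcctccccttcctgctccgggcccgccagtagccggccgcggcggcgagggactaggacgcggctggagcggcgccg
ADGRA3, chr4:22516017-22516316, minus strand: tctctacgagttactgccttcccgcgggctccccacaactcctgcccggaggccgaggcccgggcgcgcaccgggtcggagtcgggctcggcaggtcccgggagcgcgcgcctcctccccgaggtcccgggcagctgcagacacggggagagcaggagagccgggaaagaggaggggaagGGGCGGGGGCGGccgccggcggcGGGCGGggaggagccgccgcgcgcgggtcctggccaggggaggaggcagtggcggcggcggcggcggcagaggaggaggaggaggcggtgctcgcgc
SDCCAG8, chr1:243255791-243256090, plus strand: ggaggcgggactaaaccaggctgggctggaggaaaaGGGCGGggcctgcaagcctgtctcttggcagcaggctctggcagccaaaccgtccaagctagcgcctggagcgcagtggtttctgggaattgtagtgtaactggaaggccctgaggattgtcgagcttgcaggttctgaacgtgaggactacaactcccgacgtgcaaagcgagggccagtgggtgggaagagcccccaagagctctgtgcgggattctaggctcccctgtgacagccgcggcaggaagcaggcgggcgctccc
KAT2B, chr3:20040196-20040495, plus strand: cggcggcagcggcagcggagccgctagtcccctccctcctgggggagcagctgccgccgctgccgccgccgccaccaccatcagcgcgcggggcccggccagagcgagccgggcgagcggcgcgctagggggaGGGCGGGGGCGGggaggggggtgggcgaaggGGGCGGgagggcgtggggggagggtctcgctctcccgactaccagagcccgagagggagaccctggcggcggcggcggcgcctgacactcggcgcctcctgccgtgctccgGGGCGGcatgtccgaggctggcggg

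LIMS1 encodes PINCH1, an adaptor of integrin adhesions. In the authors' deposited table its intronic region, 5.67 kb from the nearest annotated TSS, which is another start than the one shown, had a knockdown mean of 14.2 reads and a control mean of 1.95, with a log2 fold of 1.64, and the region at its start had 51.6 and 20.9 reads with a log2 fold of 1.12. KAT2B encodes the histone acetyltransferase PCAF. Its stronger intronic region had a log2 fold of 1.37, its other one 0.90, and its start 0.70, from 37.3 and 21.3 reads. SDCCAG8, a centrosomal protein gene, had log2 folds of 1.41 in the intron and 1.21 at the start, and the adhesion receptor gene ADGRA3 had 1.44 and 0.88, each for the stronger of 2 intronic regions. In these 4 genes the control mean of that region was lower (1.66 to 8.4 reads) than that of the start (7.26 to 40.8 reads).

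The LIMS1 window held 7 matches of CCGCCC, KAT2B held 4, ADGRA3 held 3 and SDCCAG8 held 1. At least 1 match stood in 71.0% of the 93 such promoters with a RefSeq entry (95% interval 60.6 to 79.9%), in 71.4% of the 2700 promoters of all genes with a gained promoter region, and in 58.7% of the 15044 promoters of all protein-coding genes outside chromosome 7. It stood in 55.8% of the 172 promoters whose genes gained the first intron and no promoter (48.1 to 63.4%). Further motifs searched on both strands were TGTGGT for RUNX factors, then GGAAGT for ETS factors, then TGANTCA for AP-1, then GATAAG for GATA factors and lastly the E-box CACGTG. None of them stood in the 4 windows shown. Among the 93 promoters GGAAGT stood in 19.4% (11.9 to 28.9%), against 30.6% of all gained promoters, which lies outside that interval, and 24.8% of all promoters, which lies inside it. The RUNX motif stood in 10.8% (5.28 to 18.9%), against 10.9% of all. TGANTCA stood in 5.38% against 5.72% of all, GATAAG in 2.15% against 5.17%, and CACGTG in 6.45% against 8.89%, and each of these shares of all lay inside the interval for the 93. A match describes the letters in a window and is not a bound site.

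MIR155HG and MIR181A1HG, host transcripts of microRNAs with roles in blood cells, were among the genes with a gained first intron, and their products are shown with the seed, bases 2 to 8, in capitals (RefSeq, GRCh38.p14). They were picked after the values were seen.
hsa-miR-155-5p: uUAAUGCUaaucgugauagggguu
hsa-miR-181a-5p: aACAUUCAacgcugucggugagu
hsa-miR-181b-5p: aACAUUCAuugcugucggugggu
The last 2 share the seed ACAUUCA, and miR-155-5p has UAAUGCU. The region in MIR155HG lay 5.35 kb upstream of the MIR155 hairpin, with means of 8.6 and 2.34 reads and a log2 fold of 0.94 in the authors' deposited table. The region in MIR181A1HG, 7.2 kb from its TSS, had 12.9 and 4.66 reads and a log2 fold of 0.91. Both had an FDR close to the limit of 0.05, at 0.0481 and 0.0446.

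The median log2 fold of the 470 regions was 1.01 (interquartile range 0.93 to 1.16, lowest 0.64, highest 2.16), on the deposited scale. Their median knockdown mean was 16.3 reads and their median control mean 5.60, and the overall mean was under 10 reads in 228 (48.5%). The log2 folds were close to those of the 1040 regions gained in later introns (median 1.02) and of the 1103 gained between genes within 100 kb of a TSS (1.0), whose overall means were also similar, with medians of 9.91 and 11 reads against 10.3. The 3850 gained promoter regions had 34.0 reads and a median log2 fold of 0.88. Within first introns the fold was smaller where reads were many: its median was 1.06 at 5 to 10 reads and 0.88 at 20 or more. At an FDR of at most 0.01, which 7.5% of all tested regions passed in this direction, there were 165 of the 470 (35.1%), from 5.26% of the 38 regions under 5 reads to 52.0% of the 75 regions with 20 or more, so that read number moved with the call.

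**Figure D1:**
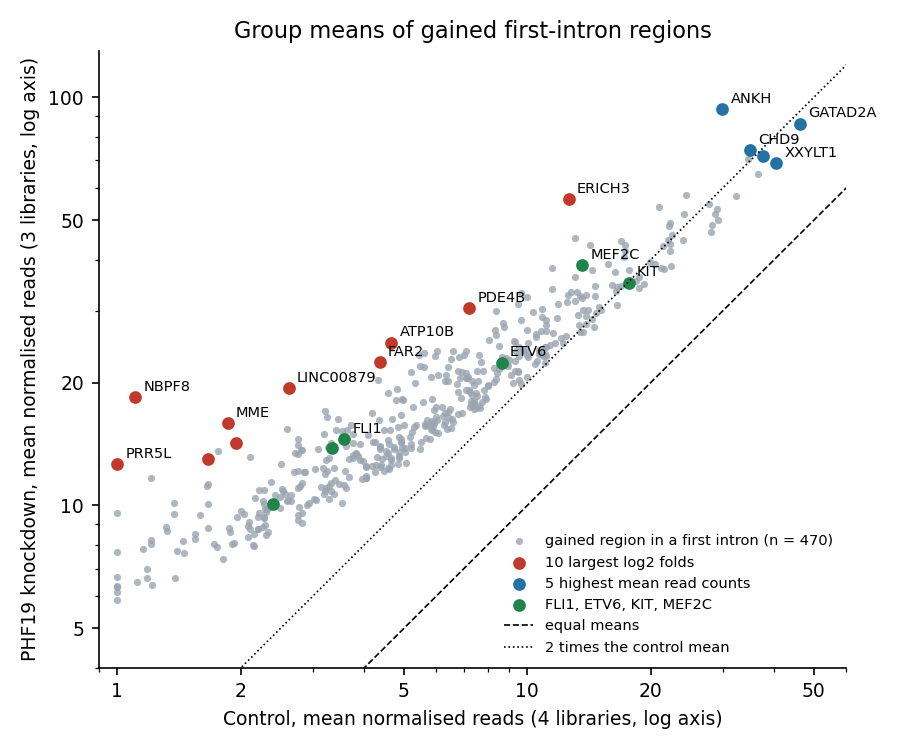
Each point is 1 of the 470 gained first-intron regions, with the authors' mean reads in the 4 control libraries (x, log axis) and the 3 knockdown libraries (y, log axis). That these reads are normalised, as the axes say, is assumed. Coloured points are the 10 largest log2 folds, the 5 highest means, and the regions of FLI1, ETV6, KIT and MEF2C; the lines mark equal means and 2 times the control mean. Most of the 10 largest folds sit at the left, at control means under 8 reads, with ERICH3 at 12.6. Of the 5 highest means, ANKH (93.7 and 29.9 reads) sits above the line of 2 times the control and the others lie near it.

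The largest log2 fold in a first intron, 2.16, was at NBPF8 and NBPF14, but this family has near-identical copies, so the origin of its reads is uncertain. It was followed by the noncoding RNA gene LINC00879 (1.89) and by ERICH3 (1.82, chromosome 1, 75118472 to 75118872), where the authors' deposited table gave 56.2 knockdown and 12.6 control reads. ATP10B, which encodes a lipid flippase, had 25 and 4.65 reads (1.77), and PDE4B, a cAMP phosphodiesterase, had 30.4 and 7.21 (1.62). MME, which encodes the peptidase CD10, a marker of lymphoid progenitors, had 15.9 and 1.86 reads (1.74) at 3.14 kb from its TSS. AQP9, a water and glycerol channel of leukocytes, had 13 and 1.66 reads (1.62). PRR5L, which encodes a partner of mTOR complex 2, had 12.6 reads against a control mean at the floor of 1 read. The control mean lay at that floor in 8 of the 470 regions, and how the deposited fold treats the floor is not known.

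The smallest FDR, 3.03e-08, was in the first intron of ANKH, which encodes a membrane protein that exports pyrophosphate and citrate, with 93.7 knockdown and 29.9 control reads (chromosome 5, 14809826 to 14810226). DRAM1, a lysosomal regulator of autophagy induced by p53, had 45.2 and 13.1 reads and an FDR of 6.62e-06. The highest overall mean was at GATAD2A, a subunit of the NuRD remodelling complex, with 86.1 and 46.3 reads and a log2 fold of 0.81. ANKH was next, followed by XXYLT1, ZFYVE28 and the chromatin remodeller gene CHD9 with log2 folds of 0.68, 0.81 and 0.97. ANKH therefore combined many reads with a large fold, whereas the others of the 5 highest means had log2 folds under 1.

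At the other end, the smallest log2 folds were 0.64 at UBASH3B, which encodes a tyrosine phosphatase, 0.66 at IQSEC1, and 0.68 at RARA, the retinoic acid receptor gene. RARA had 48.7 knockdown and 28.2 control reads. UBASH3B was also the gained region closest to equal group means, with a difference of 0.74 on the log2 scale, and across the line the lost first-intron region closest to equal was in ANAPC16, at −1.0. The highest FDR among the 470 was 0.0499. Lost regions in first introns numbered 18, and 0.38% of all tested regions were lost, so first introns were 28.6% of the 63 lost intronic regions (17.9 to 41.3%) and the interval holds the 31.1% of gained ones. They lay, for example, in HSPG2, which encodes perlecan (−1.17), MBP (−1.11), THRA, the thyroid hormone receptor (−1.03), and VEGFA (−0.90), and at 2 places in ACOT11. Of the 355 genes with a gained first intron, 4 also had a lost region, among them FAR2.

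Distances to a TSS were shorter in first introns than in later ones, which is partly built into the rule, since intron 1 begins near a TSS. Their median distance to the nearest annotated TSS was 20.8 kb (95% interval of the median 18.1 to 23.8), against 42.3 kb (39.1 to 45.7) for later introns. Between 3 and 10 kb stood 123 regions (26.2%, against 13.5% of later introns), between 10 and 30 kb 168 (35.7% against 24.9%), and beyond 100 kb 47 (10.0%, against 23.8%). No region lay within 3 kb, because the annotation calls such a region a promoter before it calls an intron; the closest were 3.0 kb away in SCAMP2, a trafficking gene, and 3.01 kb away in KDM6B, which encodes a demethylase of histone H3 lysine 27. The gained promoter region farthest from its TSS lay at 2.98 kb. The farthest first-intron region was 557 kb from the TSS of LINC00443, in the long first intron of NALF1. In 117 regions (24.9%) the nearest TSS lay downstream, so the region was inside the first intron of 1 transcript and upstream of another start.

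The gene that held the intron was also the nearest gene for 390 regions (83.0%, 79.3 to 86.3%), against 70.6% of later-intron regions (67.7 to 73.3%). The intervals do not overlap, but they cover counting error only, and neighbouring regions are not independent. A higher share in first introns is also partly built into the rule, because intron 1 lies near the start of its own transcript. The assignments differed, for example, beside noncoding RNAs: the 3 regions in FLI1 had SENCR, a noncoding RNA read from the opposite strand, as the nearest gene, and 23 regions had a microRNA. The intron lay in a protein-coding gene for 412 regions, in a long noncoding RNA gene for 30, and in a transcript with no gene identifier for 23. In 445 regions (94.7%) the width was 401 bp, so regions were of nearly 1 size and width carried no information.

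Genes with a gained first intron were long. The 325 protein-coding ones had a median span of 149 kb, against 24.1 kb for all 19036 protein-coding genes outside chromosome 7 and 190 kb for the 712 with a gain in a later intron (RefSeq spans, GRCh38.p14). A gain in a first intron was listed for 0.0739% of genes up to 10 kb long, 1.68% of genes of 30 to 100 kb, 5.19% of genes of 100 to 300 kb and 12.8% of longer ones. Set against length, the spread was smaller: 0.158 regions per Mb of gene up to 10 kb, 0.195 at 10 to 30 kb, 0.329 at 30 to 100 kb, 0.394 at 100 to 300 kb and 0.335 above. Later introns went on rising, from 0.700 to 0.788 and 0.941 regions per Mb. Regions within 3 kb of a TSS count as promoters, which takes away a larger part of a short gene than of a long one. The low share and density in short genes are therefore partly built into the rule. The length of the first introns themselves was not analysed here.

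**Figure D2:**
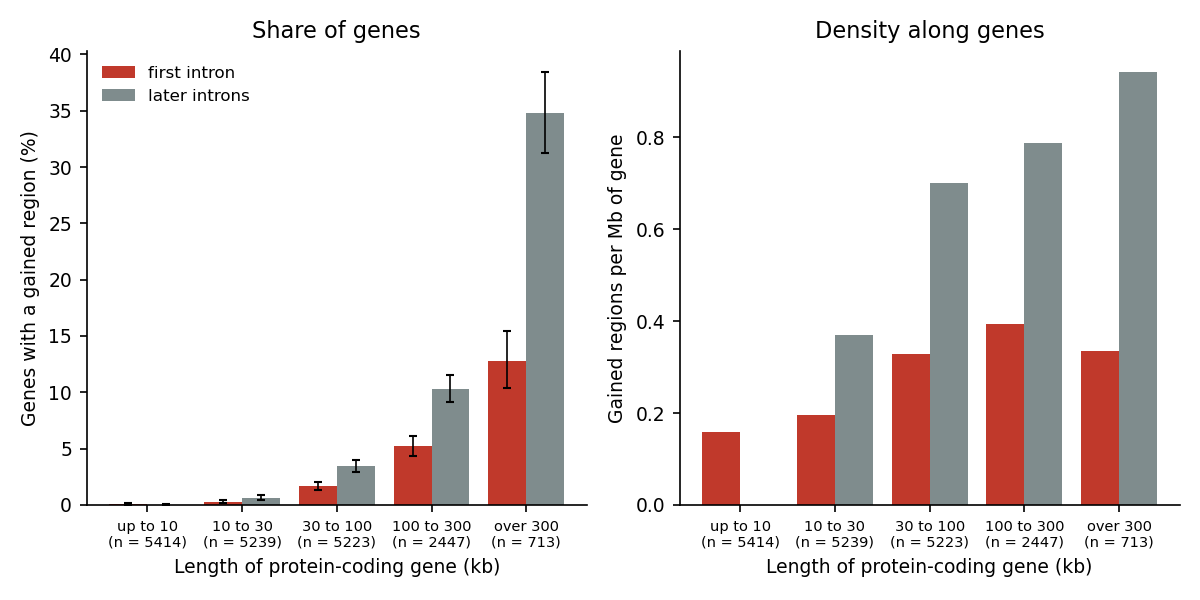
Left, the share of protein-coding genes with a gained region in the first intron (red) or a later intron (grey) by gene length, with 95% Clopper-Pearson intervals and n genes per bin; right, the gained regions per Mb of whole gene. The share rises to 12.8% (first) and 34.8% (later) in genes over 300 kb, while the first-intron density stays between 0.329 and 0.394 in the 3 longer bins. Regions within 3 kb of a TSS count as promoters, which lowers the values of short genes most.

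Some genes gained both the first intron and the promoter, and the share was compared among genes of similar length. Among genes over 100 kb, 76 of the 218 with a gained first intron also had a gained promoter (34.9%, 28.6 to 41.6%), against 623 of the 2942 without (21.2%, 19.7 to 22.7%) and 102 of the 431 with a gain in later introns only (23.7%, 19.7 to 28.0%). The genes with a gained first intron include those that also gained a later intron, 78 over all lengths. The shares therefore do not set first introns alone against later introns alone. Between 30 and 100 kb the order was another: 22.7% with a gained first intron (14.5 to 32.9%), 21.8% without, and 38.2% with a gain in later introns only (30.9 to 46.0%). Up to 30 kb genes with a gain in later introns only were also highest, at 36.4% (20.4 to 54.9%, 33 genes). The shares there were 31.6% with a gained first intron (12.6 to 56.6%, 19 genes) and 12.4% without. Without chromosomes 3 and 5, a choice made after seeing the data, the shares over 100 kb were 30.4% (23.3 to 38.2%) and 19.9% (18.3 to 21.5%). Which of these genes are transcribed was not analysed here. In the 105 genes with both, the larger log2 fold was in the intron in 68, and the medians were 1.05 in the intron and 0.94 at the promoter; promoters had more reads, and folds were smaller where reads were many, as above.

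Several genes collected many gains. By nearest gene, 64 genes had 2 or more regions and 15 had 3 or more. Within 50 kb of another first-intron region lay 117 regions (24.9%), close to the 24.6% of later-intron regions within 50 kb of each other. PDE4D, which encodes a cAMP-specific phosphodiesterase with many alternative promoters, had 7 regions spread over 869 kb and 4 transcripts. Their knockdown means were 7.71 to 17.4 reads and their control means 1.40 to 7.25, and their log2 folds lay between 0.90 and 1.23. It also had a gained promoter region (1.39) and a later-intron region (1.29), in all 10 gained regions, as many as AKAP13.

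DLG2, which encodes a scaffold protein of synapses, had 5 regions within 99.3 kb of 1 first intron, with log2 folds of 0.99 to 1.44, and no gained promoter. FAR2, a fatty alcohol synthesis gene, had 5 within 85.1 kb, of which a neighbouring pair 0.817 kb apart differed in log2 fold (1.65 and 1.02). Its promoter had 2 gained regions, at 0.94 and 0.82. TRIO had 5 within 51.3 kb, from 0.73 to 1.21, and promoter regions at 0.87 and 1.09. KCNIP1, a modulator of potassium channels, had 4 within 195 kb and no gained promoter. Folds thus varied within 1 intron: in TRIO the strongest region had 36.4 knockdown and 13.1 control reads, and the weakest had 27.4 and 14.5.

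**Figure D3:**
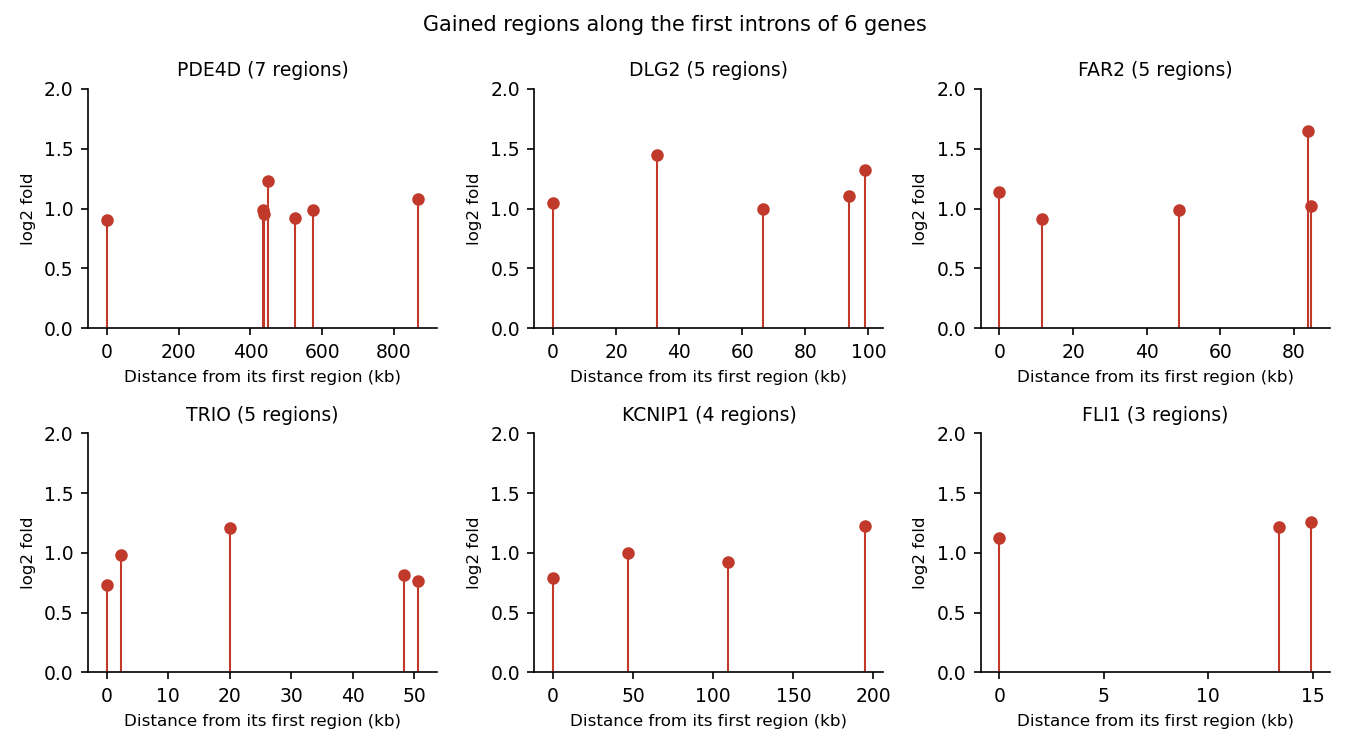
Gained regions in the first introns of PDE4D, DLG2, FAR2, TRIO, KCNIP1 and FLI1. The x axis is the distance in kb from the most upstream such region along the gene, and each stem is the authors' log2 fold of 1 region, knockdown over control. The 7 regions of PDE4D reach 868 kb, and the 3 of FLI1 stay within 14.9 kb.

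The regions were unevenly spread over chromosomes. Chromosomes 3 and 5 held 71 and 63 of them, together 28.5%, with 10.3% of the protein-coding genes, 21.7% of all gained regions and 25.5% of gained later-intron regions. Per 100 protein-coding genes there were 6.97 on chromosome 5 and 6.66 on chromosome 3, but 0.207 on chromosome 19 and 0.222 on chromosome 22. Per Mb of gene, which takes gene length into account, the values were 0.833 and 0.750 on chromosomes 5 and 3, against 0.0915 and 0.0506 on chromosomes 19 and 22. Chromosome 21 had the highest value for later introns (2.60 per Mb of gene) and 0.458 for first introns. The number of copies of each chromosome in these cells was not analysed here.

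**Figure D4:**
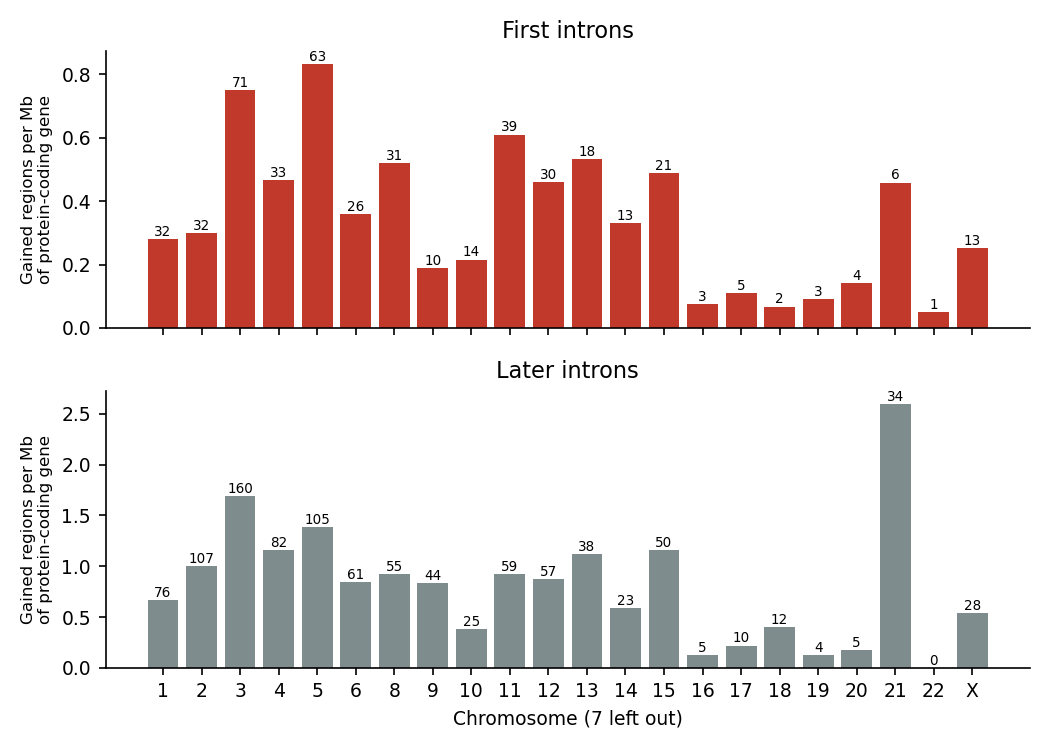
Gained regions per Mb of protein-coding gene on each chromosome, for first introns (top) and later introns (bottom, another scale), with the number of regions over each bar. Chromosomes 3 and 5 have the highest bars for first introns, at 0.750 and 0.833, and chromosome 21 for later introns, at 2.60.

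Among gene groups, transcription factors of blood cells and leukaemia had the largest share of genes with a gained first intron, 9 of 100 (9%, 4.20 to 16.4%), against 1.71% of all protein-coding genes. The group was also higher in later introns (15% against 3.74% of all) and at promoters (29% against 16.6%). The factor genes are long, so the first-intron share was also taken among genes over 100 kb. There it was 7 of 44 (15.9%, 6.64 to 30.1%) against 6.90% of all, which the interval holds. Their 15 regions had a median log2 fold of 1.13, against 1.01 in all protein-coding hosts. NFE2L2, the regulator of the antioxidant response, had 3 regions, the strongest with 23.2 and 5.94 reads (1.41), but the other 2 lie in the intron of another transcript and have LOC100130691 as the nearest gene. NFIB had 43.5 and 14.2 reads (1.31). MEF2C, a factor of myeloid and lymphoid progenitors, had 38.9 knockdown and 13.6 control reads (1.27) at 3.21 kb from a TSS. In FLI1, an ETS factor of megakaryocytes and leukaemia, the 3 regions had 10.1, 13.9 and 14.6 reads against 2.40, 3.33 and 3.58 in the control, with log2 folds of 1.13, 1.22 and 1.25. ETV6, an ETS repressor often fused in leukaemia, had 22.4 and 8.65 reads (1.01). RUNX1, the fusion partner in this line, had gains at its promoter and in later introns but none in a first intron. Of 17 leukaemia and Polycomb genes chosen for naming, 4 had a gained first intron (FLI1, ETV6, KIT and MEF2C). Over all protein-coding genes 1.71% had one, but the 17 were picked by name and not matched for length.

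Surface molecules of blood cells had 5 of 75 genes (6.67%, 2.20 to 14.9%), against 1.71% of all protein-coding genes. Over 100 kb the share was 2 of 8 (25%, 3.19 to 65.1%) against 6.90% of all, which the interval holds. Up to 100 kb it was 3 of 67 (4.48%, 0.933 to 12.5%) against 0.674% of all, which lies outside. CD44, the hyaluronan receptor of leukaemic stem cells, had 21.2 and 6.94 reads (1.19), and IL1RAP, a co-receptor of interleukin 1 displayed by leukaemic progenitors, had 26.9 and 9.98 (1.13). CD84, an adhesion receptor of leukocytes, had a log2 fold of 1.01, and the phosphatase gene PTPRJ had 2 regions, the stronger at 1.0. KIT, the receptor of stem cell factor, had 35.1 and 17.7 reads (0.84). Markers of granulocyte and monocyte differentiation had none of 57 genes (0 to 6.27%), an interval that holds the 1.71% of all protein-coding genes. At the promoter 8.77% of these markers were gained, against 16.6% of all. These are short genes, with a median of 13.2 kb, and over all protein-coding genes up to 30 kb the first-intron share was 0.178%.

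Of 43 Polycomb subunit genes none had a gained first intron (0 to 8.22%), an interval that holds the 1.71% of all protein-coding genes. At the promoter 34.9% were gained, against 16.6% of all protein-coding genes. The list holds only regions past the authors' threshold, so no gain listed does not show that accessibility stayed the same. Other chromatin regulators had 6 of 117 (5.13%, 1.90 to 10.8%), against 1.71% of all, with 46.2% gained at the promoter, against 16.6% of all. Among those over 100 kb the first-intron share was 6.90%, as in all genes of that length. KAT2B had the largest fold there, followed by KDM6B (1.03), CHD9 (0.97) and the histone deacetylase gene HDAC8 (0.96).

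Signalling kinases and phosphodiesterases had 5 of 166 genes (3.01%), and 5 of the 75 over 100 kb (6.67%, against 6.90% of all), which is near the background. They held 14 regions, of which 7 lay in PDE4D, 3 in LYN, 2 in PDE4B, and 1 each in PDE3A and PDE8A. LYN, a Src-family kinase of myeloid cells, had log2 folds of 0.94 to 1.01. The other 4 of the 5 genes encode phosphodiesterases, which the group includes by design, and their own share was not computed.

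Genes best known from neurons had gained first introns as well. Among 322 synapse and ion channel genes 16 had one (4.97%, 2.87 to 7.94%). A gain in a later intron was listed for 9.32% of them and a gained promoter for 6.52%. Over all protein-coding genes these shares were 1.71%, 3.74% and 16.6%. KCNIP4 had 23.4 and 5.43 reads (1.5), DLG2 22.0 and 5.48 in its strongest region (1.44), and the channel genes KCNAB1 and KCNK13 had log2 folds of 1.37 and 1.35. Among 229 axon guidance and neural adhesion genes 11 had a gained first intron (4.8%, 2.42 to 8.43%). Gains were listed in later introns for 17.0% of them and at the promoter for 7.42%. NCAM1, which encodes the adhesion molecule CD56, had 15.4 and 2.59 reads (1.57), CDH18 had 19.3 and 4.82 (1.41), CDH6 had 15.3 and 3.64 (1.34), and the receptor gene ROBO2 had 15.0 and 3.75 (1.29). Both groups are long: over 100 kb their first-intron shares were 11.7% (6.71 to 18.6%) and 9.02% (4.59 to 15.6%). Both intervals hold the 6.90% of all genes of that length.

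In 4 further groups the interval of the share with a gained first intron held the 1.71% of all protein-coding genes. A gained promoter was listed for 16.6% of all protein-coding genes. Of 42 immediate early genes 64.3% had a gained promoter and 1 (2.38%, 0.0603 to 12.6%) had a gained first intron, DUSP10, which encodes a phosphatase of stress kinases (32.5 and 13.5 reads, 0.99). Of 77 cell cycle and apoptosis genes 39.0% had a gained promoter and 2 (2.60%, 0.316 to 9.07%) a gained first intron, BCL2L1, which encodes BCL-XL (1.09), and E2F3 (0.96). Ribosomal protein genes had 45.3% at the promoter and none of 86 in a first intron (0 to 4.20%), and keratin genes had none of 55 in either place (0 to 6.49%). The median span of these genes was 5.96 kb in immediate early, 26.4 kb in cell cycle, 5.05 kb in ribosomal protein and 6.43 kb in keratin genes. Over all protein-coding genes up to 30 kb long the first-intron share was 0.178%. Regions within 3 kb of a TSS count as promoters, so the lack of first-intron gains in short genes is partly built into the rule.

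**Figure D5:**
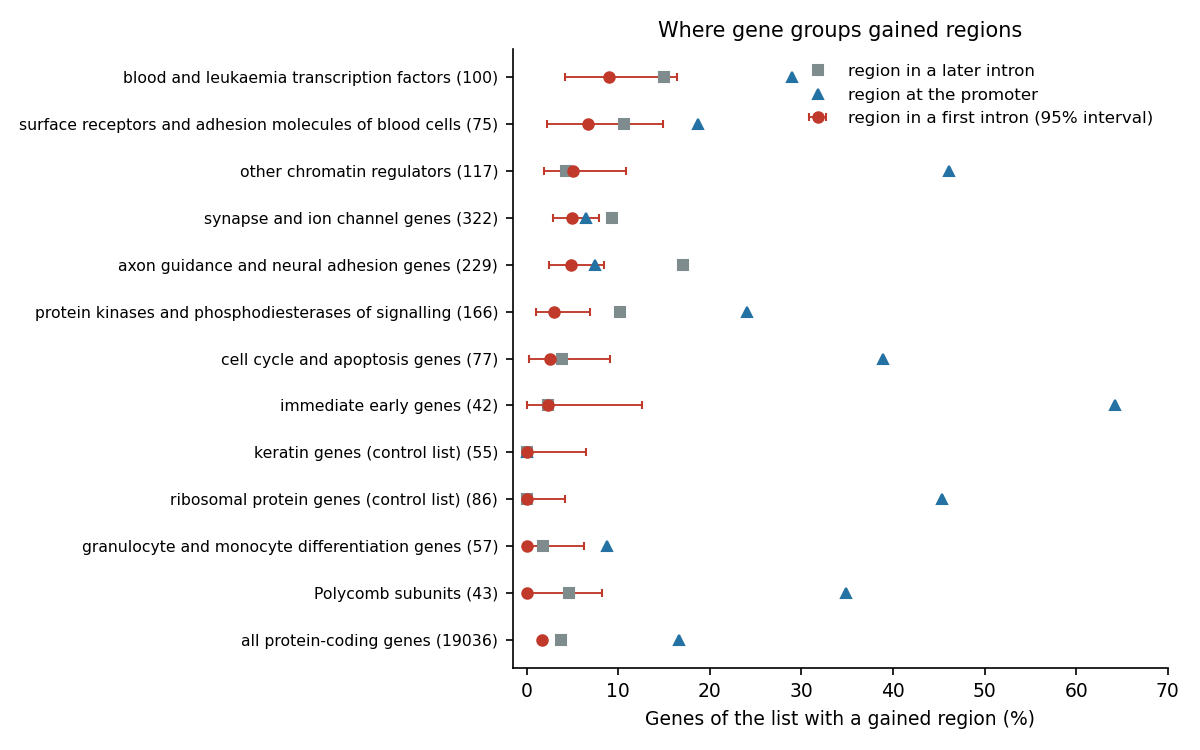
Share of the genes of each group with a gained region in a first intron (red circles, with 95% Clopper-Pearson intervals), in a later intron (grey squares) or at the promoter (blue triangles), with the number of genes in parentheses. Blood transcription factors have the highest first-intron share, 9%, and immediate early genes the highest promoter share, 64.3%.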

How the data were processed

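ATAC-seq of Kasumi-1 cells gave 2 lists of regions, higher or lower after PHF19 knockdown (3 libraries) than in the control (4 libraries), and 470 rows of them met the rule for gained regions in first introns. The deposited values were read as the log2 of mean reads (all libraries, knockdown and control), with a log2 fold, a p-value and an FDR, all made by the authors. The headers do not say whether these reads were normalised. The annotation, the width and the distance to a TSS in base pairs were also deposited. The submitters' processing notes list MACS2 2.2.6, deepTools 1.5.12, Picard 2.2.4 and Bowtie2 2.4.1 with no role. On the normalisation, the fold's tool and any shift of reads for the transposase, nothing is given in the sources used here, and these can move folds and the balance of gains and losses. In every region the fold as deposited was smaller in size than the gap between the group means. The group of each mean column was inferred from its content: the overall mean weights one column by a median of 0.429, the share of 3 of 7 libraries, and that column is the higher in the list of increased regions. Group means were returned from log2 to reads, and the number of tested regions came from FDR, rank and p-value.

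The processing notes name hg38, but gene starts matched that build in 0.137% of regions, so region coordinates are given as deposited and read as hg19. RefSeq tables of GRCh38.p14 gave names, gene types, spans and sequences only. All 470 nearest-gene identifiers and 447 of the identifiers of the gene holding the intron matched. No test was run. Shares have Clopper-Pearson 95% intervals and medians order-statistic intervals, both for counting error only. The parsing, the intervals and the number of tested regions were checked on simulated data. Scripts ran in Python 3.11.15 with scipy 1.17.1, numpy 2.4.6, pandas 2.3.3 and matplotlib 3.10.9. The regions and gene lists were chosen with earlier results of these data known. Results for 1 of the gene lists are not reported here. Genes were named by rule: the 10 largest folds, the 5 smallest FDR, the 5 highest means, the 5 genes with most regions, up to 4 per gene list, the 3 nearest to and farthest from a TSS, the 3 smallest folds, the 3 genes with most gained regions of all kinds, and 17 leukaemia and Polycomb genes. Alternatives were an FDR of at most 0.01, a log2 fold of at least 1, a mean of at least 10 reads, chromosome 7 kept, the gene of the intron in place of the nearest, the difference of group means, and transcripts with at least 2 introns.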

Additional observations from a re-analysis of the deposited data

How the results depend on the processing

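No paired analysis was possible because the lists hold 1 mean per group, and for the same reason no replicate could be left out. Of 50 recomputed values 32 stayed inside the interval of the reported value, or for counts within 1.5 times it, and 18 moved. The 470 regions became 165 at an FDR of at most 0.01, 252 at a log2 fold of at least 1 and 242 at a mean of at least 10 reads, since these keep fewer regions. Under the same 3 settings the share of gained regions was 4.89%, 8.06% and 4.34%, the median log2 fold 1.25, 1.15 and 0.98, and the genes with 2 or more regions 12, 27 and 22. The share of nearest genes with a gained promoter, 27.6% without these limits (105 of 381), was 14.4%, 11.8% and 22.9%. The limits also remove promoter regions, of which 28.2% had a log2 fold of at least 1, against 53.6% of first-intron regions. With chromosomes 3 and 5 left out, which was chosen after seeing the data, the share of gained regions was 5.67% and the genes with 2 or more regions 39. The difference of group means gave a median of 1.56 in place of 1.01. The share of gained intronic regions, the distance to a TSS, the width and the share whose nearest gene holds the intron stayed in their intervals under every alternative run for them. Low reads limit the folds, since 48.5% of the regions had under 10 reads.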

Other observations

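Long noncoding RNA genes also held gained first-intron regions, but few did. Of 18533 long noncoding RNA and microRNA host loci, 22 had a gained first intron (0.119%, 0.0744 to 0.180%). The interval holds the 0.151% of all noncoding RNA genes and lies below the 1.71% of protein-coding genes. After LINC00879, whose 3 regions reached log2 folds of 1.16, 1.07 and 1.89, the largest were in LINC01619 (21.2 knockdown and 5.20 control reads, log2 fold 1.43), LINC00499 (13.9 and 3.26, 1.31) and LINC00886 (34.0 and 11.5, 1.26), in the authors' deposited table. LINC00886 had 3 regions within 17.3 kb. The noncoding JUN-DT, read away from JUN, had 25 and 11.7 reads (0.87).

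Chromosome 7 was left out by the rule. It held 54 gained first-intron regions among 255 gained intronic ones (21.2%, 16.3 to 26.7%), a share below the 31.1% of the other chromosomes (28.8 to 33.5%), and the difference was not tested.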
